A study of Mus musculus with 6 samples.

Results

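The 9 genes described here, Foxp3, Il10, Il2ra, Ctla4, Icos, Pdcd1, Tnfrsf4, Tnfrsf9 and Tnfrsf18, are switched on in activated T cells, in regulatory T cells or in both, and their levels were followed in whole mouse lung after histamine-releasing factor (HRF) was given into the nose. They were chosen by name with earlier results of these data known, so their counts beside the shares of all genes are descriptions only. A probe was assigned to a gene through its RefSeq accession. That gave 11 probes for the 9 genes, out of 19752 genes named in this way on the array. Icos and Tnfrsf9 had 2 probes each, and the probe with the higher mean over the arrays stands for the gene unless stated otherwise. All 9 genes were well above background on at least 1 array, and 7 of them on all 6 arrays. Il10 reached that level on 2 arrays and Ctla4 on 5.

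The lungs were homogenised, and their total RNA was measured on 1-colour Agilent arrays with the dye Cy3. There were 6 groups with 1 array each, all from mice of the C57BL/6 strain: mice labelled FcRg-/- given HRF, mice labelled FcRg-/- given PBS, mice labelled FceRIa-/- given HRF, mice labelled FceRIa-/- given PBS, wild type (WT) mice given HRF, and WT mice given PBS. FcRg is the signalling chain shared by several Fc receptors, FceRIa is the IgE-binding chain of the high-affinity IgE receptor, and the HRF was the mouse protein, written mHRF-His in the labels. Age, sex, dose, time after the challenge, how the alleles were made and whether an array holds 1 mouse or a pool are not given in the sources used here. With 1 array per group there was no replicate of any group, so a difference between 2 arrays has no error of its own. Levels are log2 of the processed signal minus the array's 75th percentile, so 0 marks that percentile, and a difference of 1 is 2-fold.

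Several facts of the arrays bear on the values below. Between 67.5% and 79.6% of spots were well above background, no spot was saturated, and all arrays lay on 1 slide. The surfactant gene Sftpc, which marks alveolar epithelium, was far above the 75th percentile on every array (8.05 to 8.34). Fcer1g, which encodes the chain named FcRg, had 4.32 with HRF and 4.14 with PBS on the arrays labelled FcRg-/-, against 4.61 and 3.93 in WT, an average difference of −0.04 (limma adjusted p 0.917). Fcer1a was higher, not lower, on the arrays labelled FceRIa-/- (−1.16 with HRF and −0.90 with PBS, against −4.19 and −4.48 in WT), with a limma adjusted p of 0.0747. Whether either probe lies in the deleted part of its gene is not known here, so the arrays are named by their labels throughout. B cell markers were low on both arrays labelled FcRg-/-: their summed signal, in units of the array's 75th percentile, was 2.53 with HRF and 2.44 with PBS there, against 33.2 and 26.0 on the arrays labelled FceRIa-/- and 30.1 and 25.5 in WT. Ms4a1, Pax5 and Blk, which define B cells, were not well above background on either array labelled FcRg-/-, and the part of this difference in the values below was not tested.

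T cells that recognise antigen through their receptor, with costimulation through Cd28, turn on the high-affinity receptor for interleukin 2 and a set of further costimulatory and inhibitory receptors. Regulatory T cells are a lineage governed by the transcription factor Foxp3; they carry many of the same receptors at rest and restrain immune responses in the lung and at other barriers, in part through Ctla4, Il10 and the capture of interleukin 2. Because the receptors are shared, their RNA alone does not tell an activated conventional T cell from a regulatory one.

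Start-site windows of 300 bases, 250 before to 50 after the RefSeq start, were at hand for 7 of the 9 genes (9 windows); the others, Il10 and Icos, are named only. The windows of Ctla4 and Il2ra are shown because these genes had the largest WT ratios apart from a second Tnfrsf9 probe, and both windows of Tnfrsf9 because its 2 probes gave different values. Coordinates are RefSeq's on GRCm38.p6, each window is written 5′ to 3′ on the plus strand, and capitals mark every match to the motifs searched on both strands.

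Ctla4, chr1:60908775-60909074: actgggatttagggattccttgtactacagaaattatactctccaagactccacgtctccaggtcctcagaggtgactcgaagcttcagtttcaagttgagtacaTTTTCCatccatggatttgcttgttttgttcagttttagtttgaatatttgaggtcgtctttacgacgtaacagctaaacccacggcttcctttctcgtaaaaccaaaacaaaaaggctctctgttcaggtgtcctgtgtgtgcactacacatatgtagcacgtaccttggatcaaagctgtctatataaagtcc
Il2ra, chr2:11642542-11642841: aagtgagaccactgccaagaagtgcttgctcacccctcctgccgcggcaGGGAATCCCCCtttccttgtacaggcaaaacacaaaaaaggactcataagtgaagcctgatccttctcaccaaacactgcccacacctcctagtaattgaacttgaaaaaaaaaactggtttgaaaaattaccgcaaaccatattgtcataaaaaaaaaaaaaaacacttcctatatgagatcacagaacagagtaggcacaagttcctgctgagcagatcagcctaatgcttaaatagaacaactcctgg
Tnfrsf9, first start, chr4:150919905-150920204: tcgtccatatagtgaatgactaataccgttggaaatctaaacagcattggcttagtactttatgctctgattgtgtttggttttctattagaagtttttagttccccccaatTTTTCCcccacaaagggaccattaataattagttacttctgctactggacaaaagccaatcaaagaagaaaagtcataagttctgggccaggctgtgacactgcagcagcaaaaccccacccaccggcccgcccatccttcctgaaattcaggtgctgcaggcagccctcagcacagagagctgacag
Tnfrsf9, second start, chr4:150927749-150928048: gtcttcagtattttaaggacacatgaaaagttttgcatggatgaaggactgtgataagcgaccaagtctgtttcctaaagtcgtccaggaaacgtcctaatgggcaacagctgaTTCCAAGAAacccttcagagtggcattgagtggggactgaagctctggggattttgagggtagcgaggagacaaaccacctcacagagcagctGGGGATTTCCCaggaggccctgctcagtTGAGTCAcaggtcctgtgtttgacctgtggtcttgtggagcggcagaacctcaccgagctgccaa

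In the Ctla4 window the capitals are a match to GGAAAA, the core bound by NFAT (the calcium-driven factor of T cell receptor signalling), and the first start of Tnfrsf9 holds 1 as well. The Il2ra window holds overlapping matches to the NF-kB consensus. The second start of Tnfrsf9 holds a match to the STAT motif TTCNNNGAA, overlapping matches to the NF-kB consensus and a match to the AP-1 motif TGANTCA, none of which is in the window of its first start. Over the 9 windows, GGAAAA was found in 4, against 23.4% of all 32851 windows, TTCNNNGAA in 3 (8.3% of all), the NF-kB consensus in 2 (8.46%) and TGANTCA in 1 (7.81%). The GGAAAA and TTCNNNGAA matches of one Foxp3 window overlap. These matches describe letters and do not show that a factor was bound.

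The difference between the HRF and the PBS array reached 2-fold mostly in WT lung. By any margin, HRF was above PBS under all 3 labels for 7 of the 9 genes, but the share of all genes was not counted. Some of these margins were slight, such as 0.03 for Tnfrsf18 under FcRg-/- and 0.07 for Tnfrsf4 under FceRIa-/-. Of the others, Il2ra was not higher under FcRg-/-, and Il10 could be compared in WT only. At least 2-fold higher on the HRF array were 1 of 8 genes compared under FcRg-/-, Ctla4 (0.765% of 16591 genes were), 1 of 8 under FceRIa-/-, Pdcd1 (1.48% of 16314 genes), and 8 of 9 in WT, all but Tnfrsf9 (2.32% of 17431 genes). These counts take the brighter Tnfrsf9 probe. The dimmer probe, well above background on every array, had ratios of 0.75 under FcRg-/-, 3.97 under FceRIa-/- and 2.64 in WT. None of the genes compared was at least 2-fold lower with HRF under any label, where 1.18% of all genes were under FcRg-/-, 0.447% under FceRIa-/- and 1.52% in WT. The median ratio of the genes compared was 0.10 under FcRg-/-, 0.46 under FceRIa-/- and 1.65 in WT, and that of all genes was 0.00, −0.01 and −0.05. Over the alternative ways of processing, the count under FcRg-/- was 0 or 1, that under FceRIa-/- 0 to 2 and that in WT 7 to 9. In whole lung RNA, more cells of a type and more RNA per cell cannot be told apart.

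**Figure D1:**
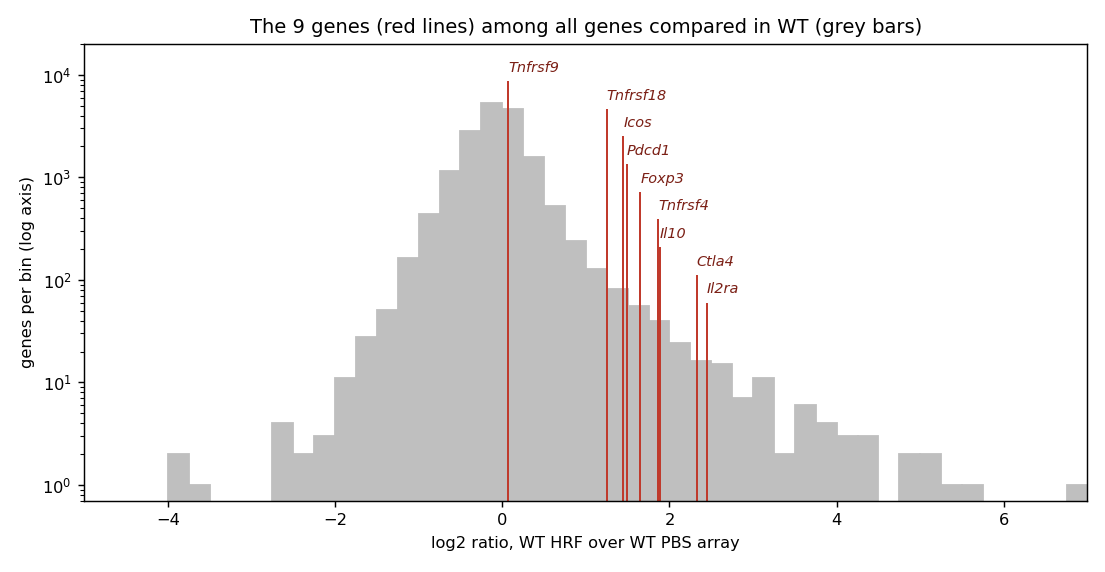
Histogram of log2 ratios of the WT HRF over the WT PBS array for the 17431 genes compared (grey bars, number of genes on a log axis), with the 9 genes as red lines. Tnfrsf9, by its brighter probe, stands at 0.07 in the middle of the distribution, and the other 8 genes lie between 1.25 and 2.45 in its upper tail.

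Foxp3, the transcription factor that defines the regulatory T cell lineage, had levels of −3.82 with HRF and −4.04 with PBS on the arrays labelled FcRg-/-, −4.11 and −4.91 on those labelled FceRIa-/-, and −2.73 and −4.38 in WT. The WT HRF array was the highest, 2.13-fold above the next array, and the HRF array was above the PBS array under all 3 genotype labels. The ratios were 0.22, 0.81 and 1.65, the last a 3.14-fold difference. After normexp and quantile normalization they were 0.02, 0.38 and 1.12, and the WT HRF array was no longer 2-fold above each other array.

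Il10, the cytokine that dampens inflammation and is made by regulatory T cells among other cells, was near the detection limit. Its levels were −7.14 with HRF and −6.68 with PBS under FcRg-/-, and −7.12 and −6.71 under FceRIa-/-, none of them well above background. In WT they were −4.36 with HRF and −6.24 with PBS, a difference of 1.89 or 3.70-fold, which was 0.76 after normexp background correction and quantile normalization. The probe was printed on several spots of each array, which gives a measure of technical spread: the 9 spots used on the WT HRF array ran from −4.53 to −4.23 (SD 0.0987) and all 9 were well above background, whereas those on the WT PBS array ran from −7.00 to −5.69 (SD 0.429) and 7 of 9 were. The spots of the 2 WT arrays did not overlap. No fold is given for the arrays labelled FcRg-/- or FceRIa-/-, since both arrays of each pair were at background. The receptor chain Il10ra had ratios of 0.17 under FcRg-/-, 0.49 under FceRIa-/- and 0.77 in WT, and its partner Il10rb had −0.00, 0.18 and 0.14.

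Il2ra is the chain that gives the interleukin 2 receptor its high affinity. Apart from the dimmer Tnfrsf9 probe (2.64), it showed the largest WT ratio of the 9 genes. Its levels were −2.19 with HRF and −2.17 with PBS under FcRg-/-, −1.77 and −2.24 under FceRIa-/-, and 0.28 and −2.17 in WT. The 3 PBS arrays lay between −2.24 and −2.17, and the WT HRF array stood 4.15-fold above the next array. The ratios were −0.02, 0.47 and 2.45, the last 5.45-fold. Il2, the ligand and a T cell product, had −6.27 with HRF and −5.85 with PBS under FcRg-/-, −5.54 with HRF under FceRIa-/- (at least 0.87 above its PBS array, which was not well above background), and −2.87 and −5.81 in WT. Its WT ratio of 2.95 was higher than that of any of the 9 genes. The receptor's beta chain Il2rb, also carried by NK cells, had ratios of 0.03, −0.18 and 1.03, and the gamma chain Il2rg, shared by several cytokine receptors, 0.03, 0.08 and 0.46.

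Ctla4, the inhibitory receptor that competes with Cd28 for Cd80 and Cd86, had levels of −4.78 with HRF and −5.81 with PBS under FcRg-/-, −5.85 and −7.92 under FceRIa-/- (the second not well above background), and −2.92 and −5.25 in WT. HRF exceeded PBS under every label, by 2.04-fold under FcRg-/-, by at least 1.48-fold under FceRIa-/- and by 5.02-fold in WT. After normexp and quantile normalization these ratios were smaller, at 0.29, 0.36 and 1.34 on the log2 scale, the last 2.53-fold. It was the only gene of the 9 at least 2-fold lower on a PBS array of a knockout label than in WT: at least 2.24-fold, under FceRIa-/-. Cd28, the activating receptor, had ratios of −0.01, 0.38 and 0.50 in the same order. The shared ligands had 0.03, 0.05 and 0.18 (Cd80) and 0.28, 0.30 and 0.82 (Cd86), so none of these was 2-fold higher on an HRF array.

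Icos, an inducible costimulatory receptor, was measured by 2 probes that gave nearly the same ratios. The brighter had levels of −1.09 with HRF and −1.23 with PBS under FcRg-/-, −1.05 and −1.5 under FceRIa-/-, and 0.42 and −1.03 in WT. Its ratios were 0.14, 0.45 and 1.45, and its WT HRF array was 2.73-fold above the next. The dimmer probe had −2.74 with HRF and −2.71 with PBS under FcRg-/-, −2.55 and −3.19 under FceRIa-/-, and −1.47 and −2.95 in WT, with ratios of −0.03, 0.64 and 1.48. Icos lies beside Ctla4 on chromosome 1, and both were highest on the WT HRF array. The ligand Icosl, carried by B cells and other antigen-presenting cells, had ratios of −0.25, 0.49 and 0.18.

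Pdcd1, the inhibitory receptor of activated and exhausted T cells, had levels of −3.72 with HRF and −3.90 with PBS under FcRg-/-, −3.27 and −4.27 under FceRIa-/-, and −1.88 and −3.37 in WT. Its ratios were 0.18, 1.0 and 1.49, and the FceRIa-/- ratio of 2.0-fold lay just past the 2-fold limit (0.57 on the log2 scale after normexp and quantile normalization). Both ligands were at least 2-fold higher in WT with HRF: Cd274 had ratios of 0.21, 0.61 and 1.11. Pdcd1lg2, found mainly on dendritic cells and macrophages, had levels of −2.04 with HRF and −3.49 with PBS under FcRg-/-, −3.11 and −3.32 under FceRIa-/-, and −0.68 and −3.21 in WT. Its ratios of 1.45, 0.20 and 2.54 were thus past 2-fold under FcRg-/- as well as in WT.

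**Figure D2:**
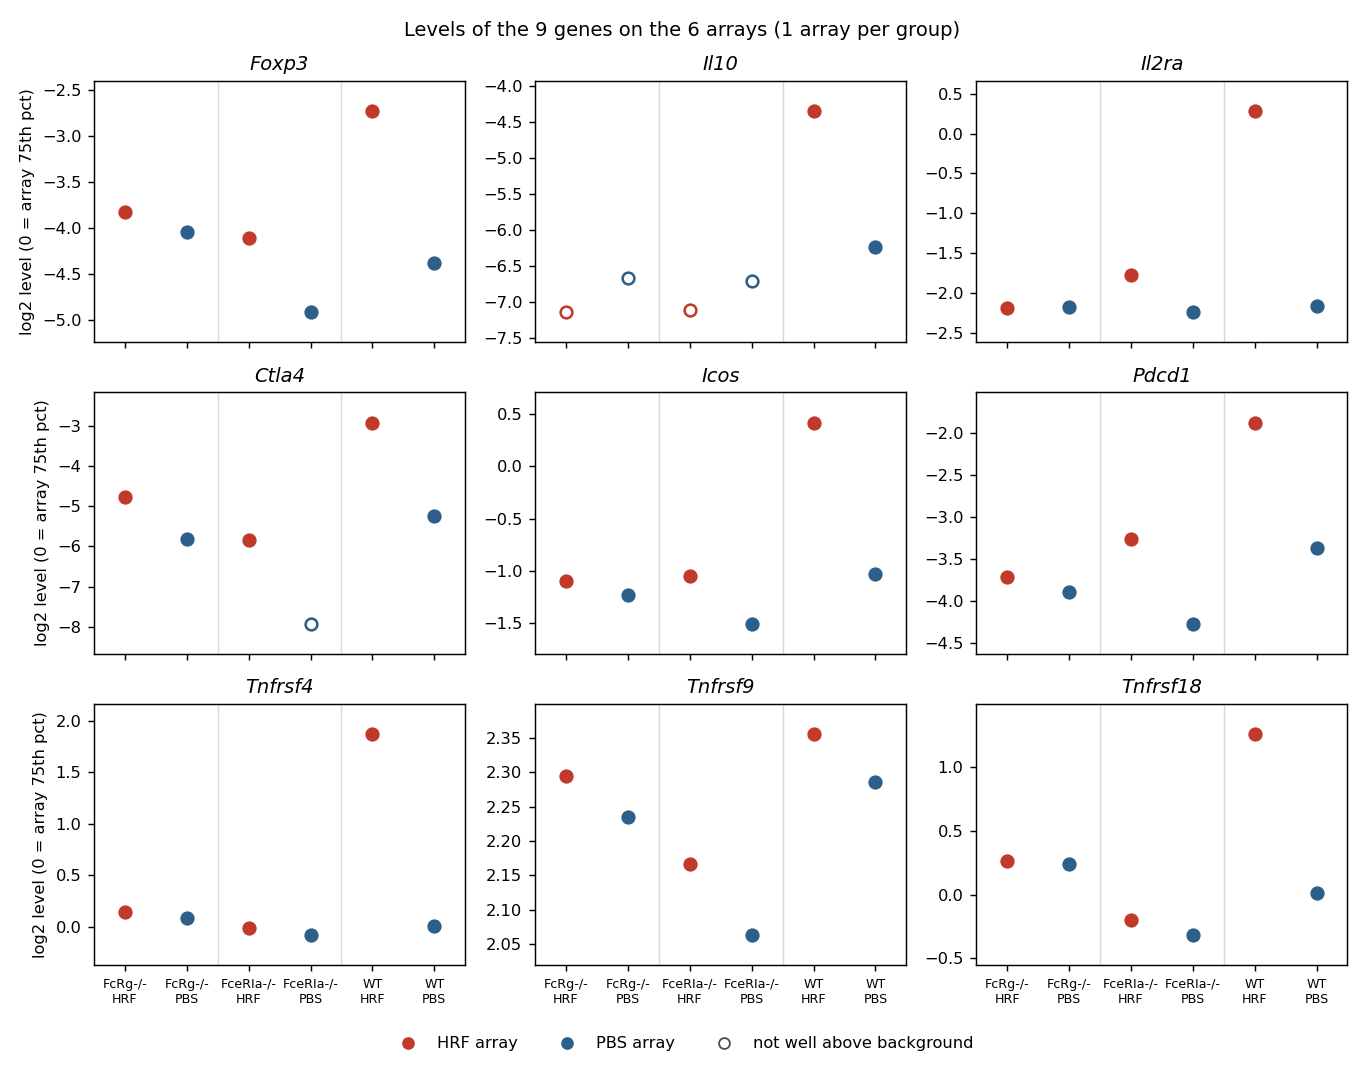
Level of each of the 9 genes on each of the 6 arrays, as log2 of the processed signal relative to the array's 75th percentile, with each panel on a y axis of its own and open symbols for arrays not well above background. The WT HRF array is the highest in all 9 panels, by 1.04-fold for Tnfrsf9 (brighter probe) and by 1.99- to 4.15-fold for the other genes.

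Tnfrsf4, a costimulatory receptor also called OX40, had levels of 0.14 with HRF and 0.09 with PBS under FcRg-/-, −0.01 and −0.08 under FceRIa-/-, and 1.87 and 0.01 in WT. Every array but the WT HRF array lay between −0.08 and 0.14, and the WT HRF array was 3.31-fold above the next, with ratios of 0.05, 0.07 and 1.86. Tnfrsf18, the receptor also called GITR, carried by regulatory T cells at rest, had levels of 0.26 with HRF and 0.24 with PBS under FcRg-/-, −0.20 and −0.32 under FceRIa-/-, and 1.26 and 0.01 in WT. Its ratios were 0.03, 0.11 and 1.25. Its WT HRF array was 1.99-fold above the next, just short of 2-fold. On no array was Tnfsf4, the ligand of Tnfrsf4, well above background. Tnfsf9, the ligand of Tnfrsf9, had ratios of −0.22, 0.33 and 0.40. Tnfsf18, the ligand of Tnfrsf18, had a WT ratio of 0.38 and was at least 2-fold lower with HRF under FceRIa-/-, where its HRF array was not well above background.

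For Tnfrsf9, the costimulatory receptor also called 4-1BB, the 2 probes disagreed. The brighter had levels of 2.29 with HRF and 2.23 with PBS under FcRg-/-, 2.17 and 2.06 under FceRIa-/-, and 2.36 and 2.29 in WT, so its ratios were 0.06, 0.10 and 0.07, the last being −0.11 after normexp and quantile normalization. The dimmer had −3.47 with HRF and −4.22 with PBS under FcRg-/-, −1.20 and −5.17 under FceRIa-/-, and −1.43 and −4.07 in WT. Its ratios were 0.75 (1.68-fold), 3.97 (15.7-fold) and 2.64 (6.24-fold). The dimmer probe was the only one of the 11 that was highest on the HRF array labelled FceRIa-/-, and why the probes differ was not tested.

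**Figure D3:**
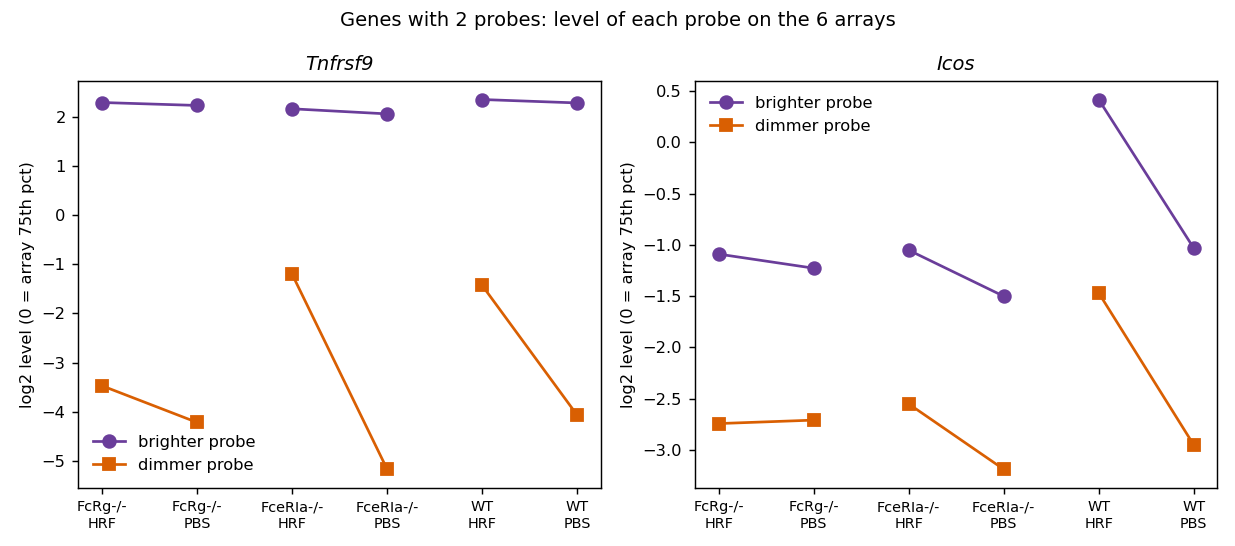
Levels of the 2 probes of Icos and the 2 probes of Tnfrsf9 on the 6 arrays, as log2 relative to the array's 75th percentile. The Icos probes run in parallel, with WT ratios of 1.45 and 1.48, whereas the Tnfrsf9 probes part, with WT ratios of 0.07 and 2.64.

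Across the 6 arrays, the WT HRF array was the highest for 9 of 9 genes, which held for 19.1% of all 17601 genes; it was 8 of 9, all but Tnfrsf9, with normexp and with the mean or the dimmest of a gene's probes. It was at least 2-fold above each of the other 5 arrays for 7 of 9, against 0.989% of all genes. Il10, in both counts, was well above background on the 2 WT arrays only, so it entered these counts through WT alone. Without the pair labelled FcRg-/- the 2-fold count was 8 of 9 (1.28% of genes), and without the pair labelled FceRIa-/- it was 7 of 9 (1.45%). Among the HRF arrays, 7 of 9 genes were at least 2-fold lower under FcRg-/- than in WT, where 3.02% of genes were, and Tnfrsf18 (−1.0) lay just inside the limit. Under FceRIa-/- 8 of 9 were at least 2-fold lower than in WT, where 2.29% of genes were. Il2ra differed by −2.47 under FcRg-/- and −2.05 under FceRIa-/-, and Ctla4 by −1.86 and −2.93. Il10 was at least 4.48-fold and at least 3.68-fold lower. No gene was 2-fold higher under either label (0.946% and 1% of genes). These comparisons share the WT HRF array with the WT ratio above. Among the PBS arrays, 0 of 9 genes were 2-fold lower under FcRg-/- than in WT (3.04% of genes) and 1 of 9, Ctla4, under FceRIa-/- (2.88% of genes), and none was 2-fold higher (0.679% and 0.512%). Between the PBS arrays of the 2 knockout labels, 0 of 8 genes compared were 2-fold higher under FcRg-/- than under FceRIa-/- and 0 of 8 lower (1.14% and 1.18% of genes). The PBS array labelled FceRIa-/- was the lowest of the 6 for 8 of the 9 genes, all but Il10. The share of all genes for which this held was not counted, so it is not read as a trait of the 9 genes. Some margins were small, as for Tnfrsf4 (−0.08, against −0.01 on the next lowest array), and Ctla4 was not well above background there.

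**Figure D4:**
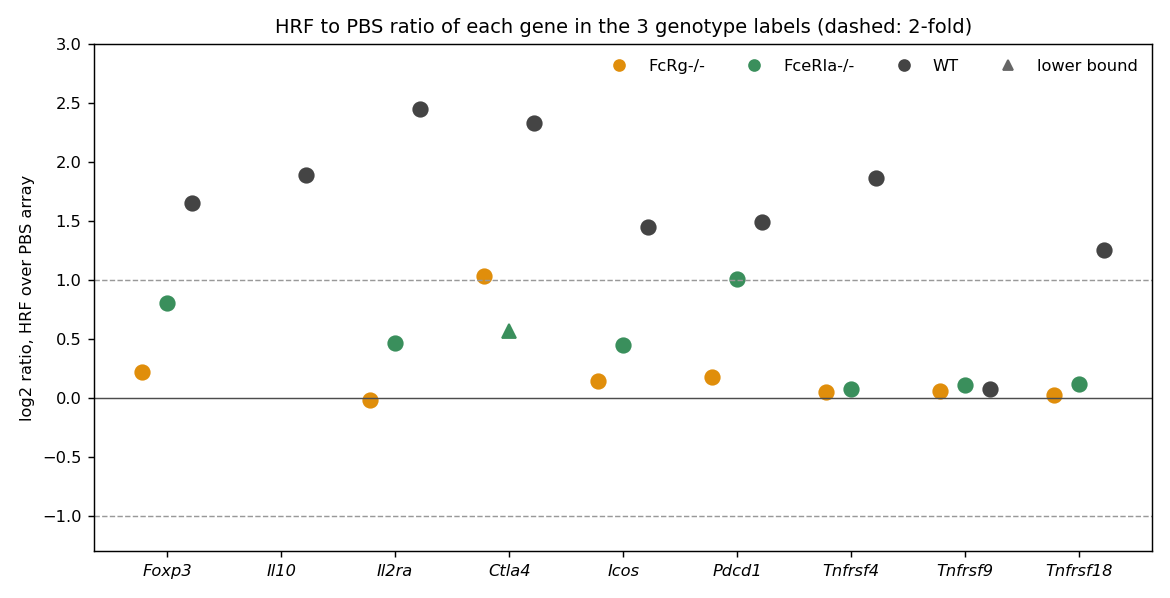
Log2 ratio of the HRF over the PBS array for each of the 9 genes under each genotype label, with a triangle for a lower bound and no point for Il10 under the knockout labels, where both arrays were at background. Past 1 lie 1 gene, Ctla4, under FcRg-/-, 1 gene, Pdcd1, under FceRIa-/-, and 8 of the 9 genes in WT. Tnfrsf9 is shown by its brighter probe.

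Replication of HRF against PBS exists only across the genotype labels, so an additive limma model of label and challenge was fitted over all 6 arrays and 17601 genes, with 2 residual degrees of freedom. The average HRF effect was above 0 for 9 of 9 genes (45.2% of all genes), with a median of 0.68 against −0.02 for all genes, but no gene on the array passed an adjusted p of 0.05 (0%, lowest adjusted p 0.557). At an unadjusted p under 0.05 there were 1552 genes, among them Ctla4 and Pdcd1. Ctla4 had an average effect of 1.81 (SE 0.30, adjusted p 0.557 in limma), with HRF higher in 3 of 3 pairs. This estimate takes the signal of the PBS array labelled FceRIa-/- as measured, although Ctla4 was not well above background there, and it was 0.66 after normexp and quantile normalization. Pdcd1 had 0.89 (SE 0.29, adjusted p 0.557), also with HRF higher in 3 of 3. Foxp3 followed at 0.89 (SE 0.31, adjusted p 0.557), and the adjusted p of the other genes ran up to 0.836 for Il10. Without the WT pair the effect was above 0 for 8 of 8 genes compared (48.6% of all genes), with a median of 0.26. Il10 was not compared there, since it was at background on every array labelled FcRg-/- or FceRIa-/-. Without a filter on background its ratios were −0.47 under FcRg-/- and −0.41 under FceRIa-/-.

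A model with a separate HRF term for WT asked whether the response in WT differed from that under both knockout labels, with 1 residual degree of freedom. The difference was above 0 for 8 of 9 genes (45.5% of all genes). Il10, also counted below at the unadjusted limit, entered this fit through the WT arrays alone. Its value rests on 4 arrays at background, whose signals were lower with HRF, and thus exceeds its WT ratio of 1.89. The largest differences were those of Il10 at 2.32, Il2ra at 2.22 (SE 0.30) and Tnfrsf4 at 1.80 (SE 0.13). None passed, with limma adjusted p of 0.569 for these 3 genes, and neither did any other gene on the array in either direction (0%), while 1526 genes, 5 of the 9 among them, had an unadjusted p under 0.05. Tnfrsf9 had −0.01 (adjusted p 0.982). The corresponding tests for a response under FcRg-/- or FceRIa-/- alone passed for no gene (0% each), with 1026 and 608 genes at an unadjusted p under 0.05. In the additive model, all 9 genes were lower under both labels than in WT (49.6% of all genes were lower under FcRg-/- and 55.6% under FceRIa-/-), with medians of −0.85 and −0.98, and none of the 9 passed. Of all genes, 0.142% (25 genes) passed as lower and 0.00568% (1 gene) as higher under FcRg-/-, and none under FceRIa-/- (0%, 2262 genes at an unadjusted p under 0.05). The lowest adjusted p among the 9 under FceRIa-/- was that of Ctla4, at −2.80 (SE 0.37, adjusted p 0.162), which rests on the same background signal and was −0.86 (adjusted p 0.370) after normexp and quantile normalization.

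Other genes of T cell state were counted in lists, none of whose genes passed the test of the average HRF effect. Among the ligands and partners given above, those at least 2-fold higher with HRF were 1 of 13 compared under FcRg-/- (Pdcd1lg2), 0 of 13 under FceRIa-/- and 4 of 13 in WT (Il2, Il2rb, Cd274 and Pdcd1lg2), with median ratios of 0.03, 0.30 and 0.50. Of genes associated with regulatory T cells, none was at least 2-fold higher under either knockout label (0 of 16 and 0 of 15) and 1 of 16 was in WT. It was Ccr4, a homing receptor for Ccl17 and Ccl22, with ratios of 0.20 under FcRg-/-, 0.65 under FceRIa-/- and 2.11 in WT. The list's median ratios were −0.02, 0.02 and 0.43. Tigit, an inhibitory receptor, had a WT ratio of 0.76, Entpd1, an enzyme that breaks down extracellular ATP, −0.10, and Prdm1, a factor of effector differentiation, −0.25. Ikzf2, which encodes the factor Helios of many regulatory T cells and was singled out after its values were seen, had ratios of −0.15, −0.10 and −0.00.

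Of the activation and exhaustion genes, 0 of 17 compared were at least 2-fold higher with HRF under FcRg-/-, 1 of 17 under FceRIa-/- and 3 of 18 in WT, with medians of 0.04, 0.29 and 0.63. Il21, a cytokine of follicular helper T cells, was at background on every array but WT HRF, where it was higher by at least 2.78 on the log2 scale. Cd69, an early activation marker, had ratios of 0.59, 1.16 and 0.96. The other 2 genes past 2-fold in WT were Batf, an AP-1 family factor (1.57), and Egr2, a factor induced by receptor signalling (1.55), named after their values were seen. Nfatc1 had −0.30, −0.15 and −0.19, and Nr4a1, an immediate response gene, −0.93, 0.68 and −0.62. T helper lineage genes had the highest median WT ratio of these lists, at 1.61, with 1 of 12 genes at least 2-fold higher under FcRg-/-, 1 of 13 under FceRIa-/- and 7 of 13 in WT. Il13, an effector cytokine of type 2 responses, was higher with HRF on the log2 scale by at least 2.29 under FcRg-/-, at least 0.30 under FceRIa-/- and at least 5.73 in WT. Il17a is the cytokine of T helper 17 and gamma delta T cells. On that scale it was higher by 5.30 in WT and by at least 1.68 under FceRIa-/-. It was not well above background on either array labelled FcRg-/-. Il13 and Il17a can also come from innate lymphoid cells. Rora, a nuclear receptor of lymphoid lineages, was not higher with HRF in WT, at −0.46.

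T cell identity markers such as the Cd3 chains were at least 2-fold higher in none of 23 genes under any label, with median ratios of −0.17 under FcRg-/-, 0.22 under FceRIa-/- and 0.43 in WT. Their summed signal was 53.3 with HRF and 57.3 with PBS under FcRg-/-, 49.0 and 41.3 under FceRIa-/-, and 59.4 and 43.0 in WT. The sum of the 9 genes themselves was 8.09 and 7.75 under FcRg-/-, 7.31 and 6.59 under FceRIa-/-, and 14.3 and 7.78 in WT. Such a sum weights bright genes most. The brightest of the 9 was Tnfrsf9, with log2 levels of 2.36 with HRF and 2.29 with PBS in WT. Foxp3, Il10, Ctla4 and Pdcd1, at −1.88 or lower on every array, added little.

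Markers of some other cells were higher with HRF as well, and their part in the values above was not tested. At least 2-fold higher were 0 of 7 neutrophil markers under FcRg-/-, 0 of 7 under FceRIa-/- and 4 of 7 in WT, where their median ratio was 1.68. Their summed signal was 225 with HRF and 189 with PBS under FcRg-/-, 271 and 238 under FceRIa-/-, and 202 and 165 in WT. Of mature dendritic cell markers, 0 of 8 under FcRg-/-, 3 of 8 under FceRIa-/- and 4 of 8 in WT were at least 2-fold higher, among them the chemokines Ccl17 (0.85, 2.38 and 2.89) and Ccl22 (−0.08, 1.70 and 1.98). Their summed signal was 24.1 with HRF and 19.9 with PBS under FcRg-/-, 35.4 and 18.6 under FceRIa-/-, and 57.5 and 20.3 in WT. Of lymph node stroma markers, 0 of 5, 2 of 6 and 2 of 6 were so, Cxcl13 and Ccl19, chemokines that draw B cells and T cells, with summed signals of 53.7 and 55.3, 57.3 and 55.2, and 57.1 and 45.0. Of monocyte and macrophage markers, 0 of 9, 1 of 9 and 2 of 9 were so, with 64.7 and 61.7, 85.4 and 57.4, and 83.5 and 56.7. ILC2 markers were so in 1 of 9, 0 of 9 and 1 of 9, and mast cell and basophil markers in 1 of 9, 0 of 9 and 0 of 9. No B cell, NK cell, thymocyte or lung epithelium and endothelium marker was at least 2-fold higher with HRF under any label.

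**Figure D5:**
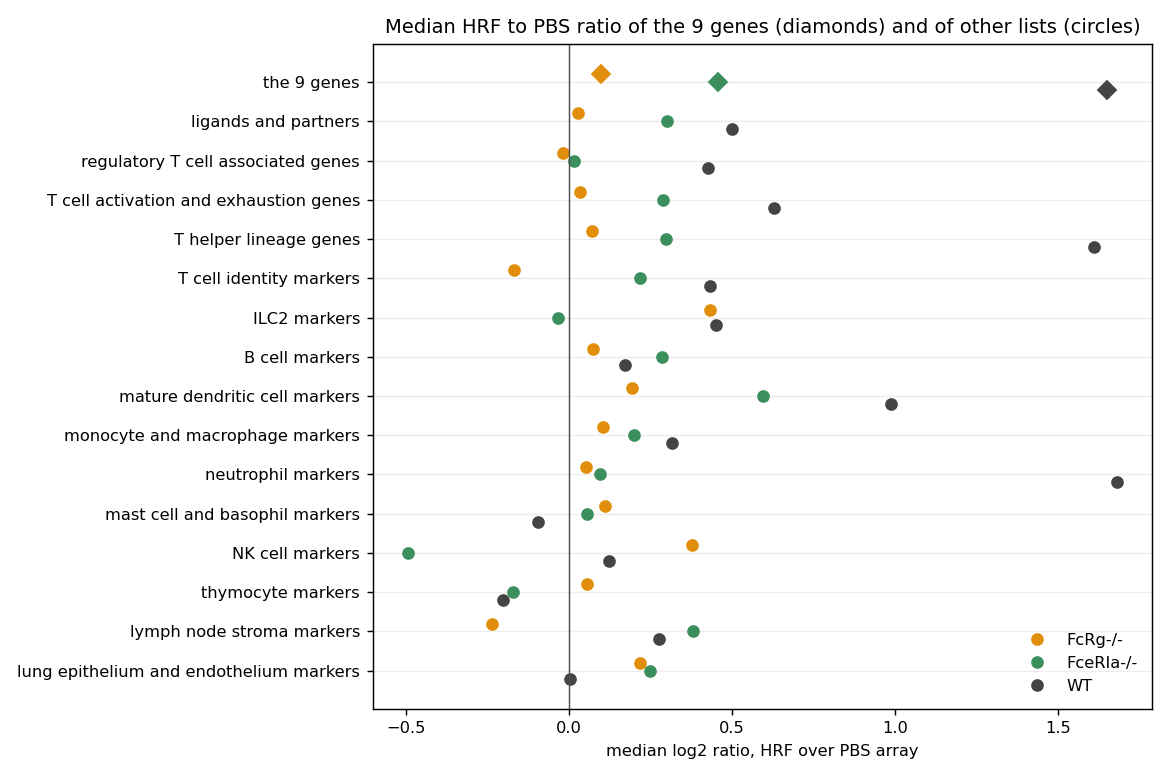
Median log2 ratio of the HRF over the PBS array for each gene list under each genotype label. In WT the T helper lineage genes (1.61) and the neutrophil markers (1.68) lie highest beside the 9 genes (1.65), and the T cell identity markers lie at 0.43.

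The pattern of Il2ra over the 6 arrays was most like that of Rdh10 (Pearson r 0.998 over 6 arrays), Spi1 (0.998), Sting1 (0.997), Nle1 (0.994) and Wdr12 (0.994), among 15678 genes well above background on all arrays. That of Foxp3 was most like Fcgr2b (0.991), Mrpl15 (0.991), Rgs1 (0.990), Slc13a2 (0.989) and Plcxd2 (0.989). Among the 7 of the 9 genes well above background on all arrays, which leaves out Ctla4 and Il10, Tnfrsf4 (0.977) and Icos (0.973) followed Il2ra most closely and Tnfrsf9 least (0.546). These points share 1 high array and the same slide, and the values are descriptions with no test.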

How the data were processed

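Per the file headers, the array design was annotated on mm9 and Agilent Feature Extraction 10.7.3.1 read the scans. Its deposited processed intensity has the background subtracted array by array, per the file headers, with no scaling between arrays. A deposited value table holds log2 values whose scale and centring the authors do not state; differences between its columns of 1 genotype correlated across probes with those of the scanner files (r 0.998 in WT, 0.997 under FcRg-/-, 0.997 under FceRIa-/-), so it runs in the same direction. The table's WT PBS column had a median of 0.1 and each other column one of 0.

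The level computed here was the log2 processed signal after subtracting the array's log2 75th percentile, without control spots and outlier spots (179 to 244 an array), averaged over the spots of a probe. Of 55681 probes, 32335 carried a RefSeq accession, 26056 were named through the RefSeq gene table of GRCm38.p6, giving 19752 genes, and 29625 stay unnamed. For the 5270 genes with several probes the one with the highest mean was used. A gene entered a comparison if either array (in the fits, any array) had it well above background. If only one did, the dim side was set to its own signal or to the lowest signal well above background there, whichever was higher, and the ratio is a bound, written "at least". With 1 array per group a ratio had no test. The limma fits take the measured values, not the bounds, also for Il10 and Ctla4 where these were at background.

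Tests used limma 3.58.1 in R 4.3.3, with Benjamini-Hochberg adjustment over all 17601 genes. In the additive fit the residual spread is the difference between labels in the HRF to PBS ratio, each from single arrays, and it may be technical. A larger ratio in WT thus also raises the error of the average HRF effect. In a fit with a separate HRF term for 1 label, the residual spread is the difference in that ratio between the other labels. With 6 arrays in all, their number limits the precision. The rest ran in Python 3.11.15 with numpy 2.4.6, pandas 2.3.3 and matplotlib 3.10.9. Named were the 9 genes, all ligands and partners, from each other list the 2 genes with the highest and the 2 with the lowest average HRF effect (marker lists of other cells by count, with exceptions stated), the 5 genes most like Foxp3 and Il2ra, and Fcer1a and Fcer1g; 1 gene that this rule takes in is not reported here. The 9 genes and all lists were chosen with earlier results of these data known. Alternatives were scaling on the median, normexp with quantile normalization, the value table, other probe and filter rules, an intensity trend, a 1.5-fold limit, and leaving out each pair.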

Additional observations from a re-analysis of the deposited data

Results flagged for a closer look

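Il2ra, the high-affinity chain of the interleukin 2 receptor, had a log2 ratio of HRF over PBS of −0.02 on the arrays labelled FcRg-/- and 2.45 in WT. It was picked out because the ratios of these labels run in opposite directions, although the one under FcRg-/- is close to 0. Each ratio rests on 1 array per group, so the difference between these 2 labels alone was not tested. The fit that sets the WT response against both knockout labels gave 2.22 (SE 0.30, limma adjusted p 0.569).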

How the results depend on the processing

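The count of the 9 genes at least 2-fold higher with HRF in WT ran from 7 to 9 over the alternatives. Under FcRg-/- the count was 0, against 1, when arrays were scaled on their median or by normexp and quantile normalization. Under FceRIa-/- it was 2 with the value table, with the mean of probes, with the probe of lowest mean (added after seeing the data), with no filter on dim probes and at 1.5-fold, and 0 with normexp, against 1. Under normexp the WT ratio of Il10 fell to 0.76 and that of Tnfrsf9 was −0.11, while the mean of its probes gave 1.36. Scaling on the median put the median WT ratio of all genes at 0.17 and moved the share of higher calls in WT to 85.3%, against 60.4%; it was 89.6% with normexp, 47.6% with the value table, 37.0% without a filter and 40.6% at 1.5-fold. In FceRIa-/- the share was 87.4% with normexp, 65.7% without a filter and 64.6% at 1.5-fold, against 76.8%, and in FcRg-/- 25.5% with normexp, against 39.4%.

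No gene of the 9 passed any limma contrast under any alternative, and the average HRF effect passed for 0 to 0 genes when each pair was left out. The count of the 9 genes at least 2-fold above every other array on the WT HRF array ran from 7 to 8 when a pair was left out. It was 6 with normexp, where Foxp3 and Il10 fell short and Tnfrsf18 passed. Genes higher and lower under FcRg-/- than in WT were 7 and 40 with an intensity trend, 0 and 16 without a filter, 0 and 11 with the value table, 5 and 38 with normexp, and 0 higher with either other probe rule, against 1 and 25. Under FceRIa-/- they were 1 higher with the trend, 3 and 22 with scaling on the median and 2 higher with normexp, against 0 and 0. The response under FcRg-/- alone passed for 1 and 13 genes with the trend, and that under FceRIa-/- alone for 79 and 47 with scaling on the median, against 0 in each. The cause of these changes was not tested. None of the 9 genes was at least 2-fold higher with HRF in one setting and at least 2-fold lower in another. Over all genes, higher calls in WT went from a majority to a minority with the value table, without a filter and at 1.5-fold. No paired analysis was possible because the labels give no replicate numbers; the genotype label was already a term, and without it no gene passed for HRF.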
